A study of Rattus norvegicus with 24 samples.

Results

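Rasgrp3, Ppp1r1b, Dao, Aldh1a1, Smim5 and Tnnc2 are 6 genes whose transcripts stood much higher in the adult than in the neonatal dorsal horn of sham-operated rats. They were chosen on that difference, and the question addressed was whether peripheral nerve injury moves them. The 6 genes are 6 of the 10411 genes that had a probe set with 1 gene symbol on the array, and each had 1 probe set. All 6 gene identifiers carried the same symbol in the RefSeq list of rat genes.

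Expression was measured on Affymetrix Rat Expression 230A arrays in total RNA of the dorsal horn, the part of the spinal cord that receives sensory fibres, on the operated side of Sprague-Dawley rats. In spared nerve injury (SNI), 2 of the 3 branches of the sciatic nerve, the common peroneal and the tibial, were tied and cut, and the sural branch was spared. In sham operations the nerve was only exposed. Adult sham and adult SNI rats were 8 to 12 weeks old, neonate sham and neonate SNI rats are labelled P10, and both SNI groups were studied 7 days after the injury. The labels do not say whether P10 refers to surgery or to tissue collection, and for sham rats they give no interval after surgery. Each of the 4 groups held 6 arrays, described as biologically independent, and the samples within a group carry numbers 1 to 6.

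The 6 genes do unrelated work. Rasgrp3 encodes an exchange factor that loads Ras and Rap with GTP when diacylglycerol is produced, and is known from endothelial cells and B cells. Ppp1r1b encodes DARPP-32, which inhibits protein phosphatase 1 once protein kinase A has phosphorylated it, and is best known from dopamine-responsive neurons of the striatum. Dao encodes the peroxisomal D-amino acid oxidase, which destroys D-serine, a co-agonist of NMDA receptors, and is known from astrocytes of the hindbrain and spinal cord. Aldh1a1 encodes a retinaldehyde dehydrogenase that makes retinoic acid. Smim5 encodes a small protein with a membrane-spanning segment whose function is little known. Tnnc2 encodes troponin C of fast skeletal muscle, the calcium sensor that switches on contraction.

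Promoter sequences from RefSeq were used for 4 of the 6 genes. The 250 bases before the start of 2 of them are shown to set the gene that injury lowered, Tnnc2, beside a gene with no detected injury difference, Aldh1a1. Both are on build GRCr8, Tnnc2 at chr3:173935340-173935589 on the minus strand and Aldh1a1 at chr1:227537370-227537619 on the plus strand. Capitals mark the E-box, CANNTG, the letters that muscle and neuronal basic helix-loop-helix factors recognise, which reads alike on both strands.
Tnnc2: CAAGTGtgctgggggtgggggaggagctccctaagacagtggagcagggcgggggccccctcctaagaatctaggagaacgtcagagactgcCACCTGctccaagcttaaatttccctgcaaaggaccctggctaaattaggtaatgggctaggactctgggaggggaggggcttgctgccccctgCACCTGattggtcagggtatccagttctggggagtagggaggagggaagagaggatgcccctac
Aldh1a1: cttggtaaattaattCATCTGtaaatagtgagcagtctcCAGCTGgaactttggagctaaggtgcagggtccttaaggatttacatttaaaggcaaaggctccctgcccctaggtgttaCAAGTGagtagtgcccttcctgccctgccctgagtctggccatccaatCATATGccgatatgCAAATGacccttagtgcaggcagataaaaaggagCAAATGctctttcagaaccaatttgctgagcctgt
The window of Tnnc2 held 3 E-boxes and that of Aldh1a1 held 6, against 2 for Rasgrp3 and 1 for Dao. Of all 33469 rat promoter windows of this length, 65.5% held at least 1. The letters TATAAA, searched on both strands, were in none of the 4 windows and in 12.9% of all windows. The GC box GGGCGG, searched likewise, was present once in the window of Tnnc2, in none of the other 3, and in 30.5% of all windows. These matches describe the letters only.

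The deposited values are log2 expression made with GCRMA, and levels were compared only within a gene. A probe set was tested if it lay above 3.84 log2, the 40th percentile of all values, on at least 6 arrays, and this is called the filter level below. Array medians ran from 5.57 to 5.67 log2, and the lowest correlation between 2 arrays was 0.984. The mean over 16 neuronal genes lay between 11.57 and 11.90 log2 on every array, whereas 31 of 36 measured skeletal muscle genes lay below the filter level on all 24 arrays.

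The levels by which the genes were chosen are given as a description. In sham rats, adults exceeded neonates by 3.15 log2 (8.89-fold) for Rasgrp3, 2.82 log2 for Tnnc2, 2.81 log2 for Ppp1r1b, 2.64 log2 for Dao, 2.59 log2 for Aldh1a1 and 2.55 log2 for Smim5. These differences rank 5, 6, 8, 9, 10 and 11 among 7006 genes tested, and Pf4, the next gene below Smim5, stood at 2.52 log2. The genes ranked higher or between them were Alas2, C3, Cd74, RT1-Da and Hba-a3. Over all probe sets, 7.51% were called higher in adult sham by limma, a share from which nothing is read here because the choice used this contrast.

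**Figure D1:**
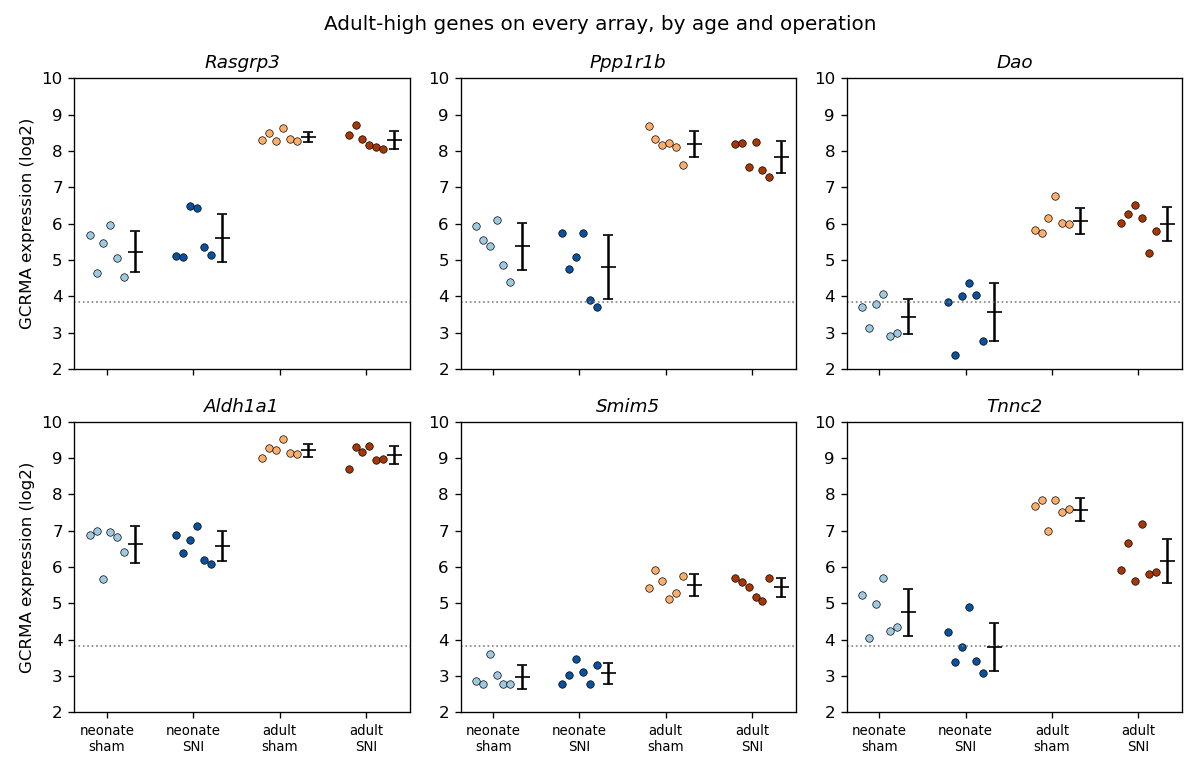
GCRMA expression (log2) of the 6 genes on each of the 24 arrays, by group, with points in the order of the array number. Bars give the mean and SD of 6 arrays and the dotted line is the filter level of 3.84 log2. Adult arrays stand above neonate arrays of the same operation for every gene, and only Tnnc2 shows a clear step between adult sham and adult SNI.

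The SNI arrays played no part in the choice and show the same age difference. Rasgrp3, Ppp1r1b, Aldh1a1 and Tnnc2 passed limma's test for adult SNI against neonate SNI, each with 6 of 6 adult arrays above all 6 neonate arrays. Among all 9638 probe sets tested 9.32% were called higher in adults in this contrast, and 4.73% had no overlap in that direction. Dao and Smim5 entered the test only through their 12 adult arrays, since 5 and 0 of their 12 neonate arrays lay above the filter level, so their differences are given without support from the test.

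Rasgrp3 ran from 8.06 to 8.73 log2 (median 8.25) in adult SNI and from 5.10 to 6.50 log2 (median 5.25) in neonate SNI. The adult mean was 8.31 ± 0.25 log2 and the neonate mean 5.61 ± 0.67 log2 (SD, n = 6), a difference of 2.70 log2 (SE 0.25, limma adjusted p = 2.4e-08). The neonate arrays were the more scattered, and those numbered 3 and 4 (6.50 and 6.43 log2) stood apart from the other 4, which lay at 5.37 log2 or below. In sham rats Rasgrp3 ran from 8.27 to 8.63 log2 in adults and from 4.54 to 5.95 log2 in neonates.

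Ppp1r1b ran from 7.29 to 8.24 log2 (median 7.87) in adult SNI and from 3.70 to 5.75 log2 (median 4.92) in neonate SNI. The difference of 3.01 log2 (SE 0.33, limma adjusted p = 3.6e-07) was the widest of the 6 genes among SNI arrays. One neonate SNI array, numbered 6, lay below the filter level. The sham arrays ran from 7.62 to 8.70 log2 in adults and from 4.40 to 6.10 log2 in neonates.

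Aldh1a1 ran from 8.69 to 9.33 log2 (median 9.07) in adult SNI and from 6.09 to 7.14 log2 (median 6.57) in neonate SNI, which gave a difference of 2.50 log2 (SE 0.20, limma adjusted p = 1.7e-09). All 24 arrays were above the filter level, so this difference does not start from the background. In sham rats the gene ran from 9.01 to 9.52 log2 in adults and from 5.66 to 6.98 log2 in neonates.

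Tnnc2 ran from 5.63 to 7.18 log2 (median 5.90) in adult SNI and from 3.09 to 4.90 log2 (median 3.62) in neonate SNI, a difference of 2.37 log2 (SE 0.31, limma adjusted p = 3.6e-06). Only 2 of the 6 neonate SNI arrays exceeded the filter level, and the width of the gap therefore depends on how GCRMA treated the background. Of the adult SNI arrays 1, numbered 3, fell within the range of neonate sham arrays, 4.05 to 5.69 log2.

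Dao ran from 5.19 to 6.51 log2 in adult SNI and from 2.40 to 4.38 log2 in neonate SNI, with means of 6.00 ± 0.46 and 3.58 ± 0.79 log2 (SD, n = 6). The neonate arrays split around the filter level, 4 above it after SNI and 1 after sham. Smim5 ran from 5.07 to 5.70 log2 in adult SNI, and no neonate array of either operation was above 3.60 log2. With the adult mean set against the filter level, Smim5 was at least 3.05-fold higher in adult SNI and at least 3.21-fold higher in adult sham.

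Marker genes of other cell types also differed between the SNI groups, where 9.66% of all genes were called higher in adults and 11.9% lower. Red blood cell genes were called higher in adults in 3 of 4 tested, led by Alas2, and microglia and macrophage genes in 11 of 12. The summed log2 level of the red cell list ran from 13.94 to 14.57 in adult SNI and from 12.13 to 13.68 in neonate SNI, and that of the microglial list from 13.94 to 14.55 and from 12.63 to 13.26. The microglial age gap was wider after injury. The mean level of that list was 8.37 log2 in adult SNI and 6.92 log2 in neonate SNI, but 6.38 and 5.87 log2 in adult and neonate sham. Astrocyte genes were called higher in 2 of 11 (Gfap and S100b) and oligodendrocyte genes lower in 2 of 8 (Mag and Cnp), the endothelial list was divided, with 3 higher and 2 lower of 11, and the meningeal list held 1 higher and 3 lower of 9. The part of such shifts in the age differences of the 6 genes was not tested. In whole tissue, fewer cells of a type and less RNA per cell cannot be told apart.

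Injury moved 1 of the 6 genes in adults. Tnnc2 fell, and the other 5 differed from sham by 0.36 log2 or less without passing the test. Over all 9638 probe sets 2% were called in adult SNI against adult sham, 1.95% higher and 0.0519% (5 probe sets) lower, so that a fall was rare on these arrays. The adult sham arrays that helped to choose the genes also serve as the control here, so the sign of an injury difference is not independent of the choice. The fall of Tnnc2 was also known from an earlier look at these arrays and is no independent support for itself.

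Tnnc2 ran from 7.00 to 7.84 log2 (median 7.63) in adult sham and from 5.63 to 7.18 log2 (median 5.90) in adult SNI. 5 of 6 SNI arrays lay below all sham arrays, and the exception was array 4, which was also the highest sham array. The mean fell from 7.58 ± 0.31 to 6.18 ± 0.61 log2 (SD, n = 6), that is, it fell by 1.40 log2 (SE 0.31, 95% interval -2.03 to -0.77, limma adjusted p = 0.00874), or 2.64-fold. Between arrays of the same number the differences were -1.75, -1.18, -1.37, -0.66, -1.71 and -1.72 log2 for numbers 1 to 6. The call held without any 1 array, with adjusted p of 0.00185 to 0.0307, but ended without all arrays numbered 1, 5 or 6, where the differences were -1.33, -1.34 and -1.34 log2 and limma gave adjusted p-values of 0.0668, 0.0643 and 0.0580.

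**Figure D2:**
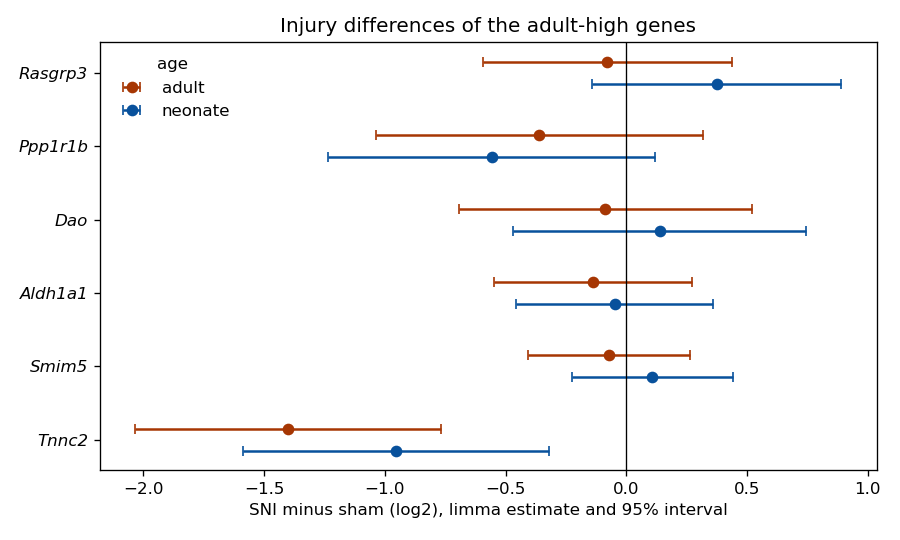
SNI minus sham (log2) for the 6 genes in adults and neonates, with 95% intervals from limma that use 1 spread per gene for both ages. The interval of Tnnc2 lies below 0 at both ages (-2.03 to -0.77 in adults, -1.59 to -0.32 in neonates), and those of the other 5 genes include 0.

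For the other 5 genes the adult intervals rest on 1 spread per gene, shared by the 4 groups. For Rasgrp3 the SD was 0.15 and 0.25 log2 in adult sham and SNI but 0.57 and 0.67 log2 in neonate sham and SNI. Where neonates scatter more, the adult interval is wider, and the neonatal one narrower, than the arrays of that age would give. Smim5 differed by -0.07 log2 (95% interval -0.41 to 0.26, limma adjusted p = 0.980) and Aldh1a1 by -0.14 log2 (95% interval -0.55 to 0.27, limma adjusted p = 0.968). Rasgrp3 differed by -0.08 log2 (95% interval -0.59 to 0.44) and Dao by -0.09 log2 (95% interval -0.69 to 0.52), each with 3 of 6 SNI arrays above the sham array of the same number and limma adjusted p = 0.989. All 4 intervals end within 0.69 log2 of 0. Ppp1r1b differed by -0.36 log2 (95% interval -1.04 to 0.32, limma adjusted p = 0.910) and was lower in 5 of 6 same-numbered pairs, so that its interval still holds a drop of 1.04 log2.

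In neonates 0 of the 6 genes passed limma's test in the main fit, which does not pair arrays by number, against 0.311% of all probe sets (30 higher and 0 lower). The neonate sham arrays that serve as the control here also helped to choose the genes. The sign of a neonatal injury difference is therefore not independent of the choice either. At an unadjusted p under 0.05 there were 240 probe sets, and Tnnc2 was the 1 gene of the 6 among them. Tnnc2 ran from 4.05 to 5.69 log2 (median 4.67) in neonate sham and from 3.09 to 4.90 log2 (median 3.62) in neonate SNI. The means were 4.76 ± 0.64 and 3.80 ± 0.66 log2 (SD, n = 6), a difference of -0.95 log2 (SE 0.31, 95% interval -1.59 to -0.32, limma adjusted p = 0.634). 4 of 6 SNI arrays lay below all sham arrays, and each SNI array lay below the sham array of its own number, by -1.01, -0.67, -1.18, -0.79, -0.82 and -1.26 log2. Since only 2 of the 6 neonate SNI arrays exceeded the filter level, the size of this fall depends on how GCRMA treated the background. With values under that level raised to it, the difference was -0.68 log2 and did not pass.

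**Figure D3:**
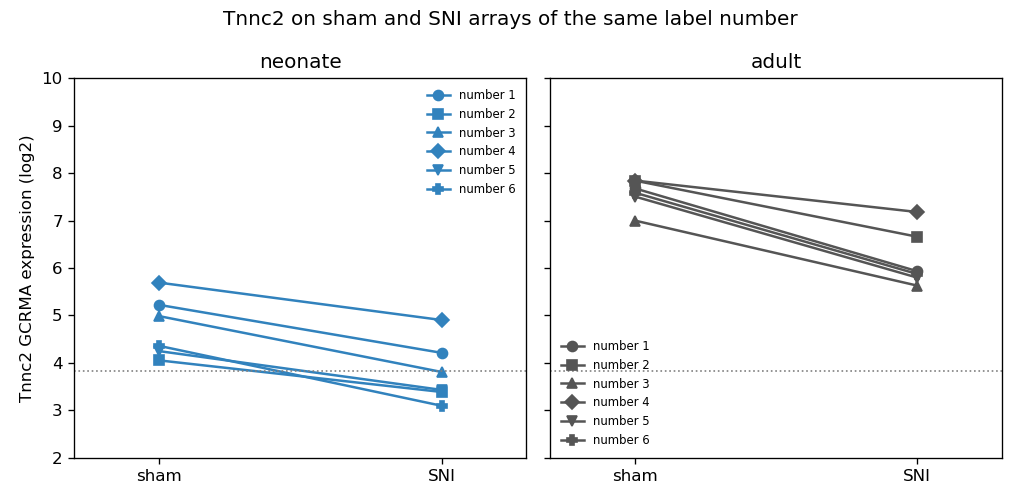
Tnnc2 expression (log2) on sham and SNI arrays, with lines joining arrays that share a number in the labels, for neonates and adults. The dotted line is the filter level, which only 2 of the 6 neonate SNI arrays exceeded. All 6 lines descend at each age, with differences of -0.67 to -1.26 log2 in neonates and -0.66 to -1.75 log2 in adults.

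Arrays of the same number deviated together within an age, and a fit with the number as a block within each age changed the neonatal calls. In that fit Tnnc2 fell by 0.95 log2 (95% interval -1.23 to -0.68, limma adjusted p = 0.00183) and Ppp1r1b fell by 0.56 log2 (95% interval -0.79 to -0.32, limma adjusted p = 0.0475). These were the 2 probe sets called lower in neonates among 9638 (0.0208%), against 33 called higher (0.342%). The size of the Tnnc2 fall depends on the background here too, since only 2 of the 6 neonate SNI arrays exceeded the filter level. With the number as a block across both ages the adjusted p was 0.0623 for Tnnc2 and 0.373 for Ppp1r1b, so neither passed. What a number stands for is not given by the labels.

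Ppp1r1b therefore rests on the pairing. Without the block its neonatal difference was -0.56 log2 (95% interval -1.23 to 0.12, limma adjusted p = 1.00), with 4.40 to 6.10 log2 in sham and 3.70 to 5.75 log2 in SNI, ranges that overlapped widely. All 6 same-numbered pairs were lower after SNI, with differences of -0.21 to -0.96 log2. In adults the blocked difference of -0.36 log2 (95% interval -0.60 to -0.12) had a limma adjusted p of 0.115, and the pair numbered 4 went the other way by 0.02 log2.

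The remaining 4 genes had neonatal differences of either sign. Rasgrp3 was higher after SNI by 0.37 log2 (95% interval -0.14 to 0.89) and in 5 of 6 pairs, Dao by 0.14 log2 (95% interval -0.47 to 0.74) and in 4 of 6 pairs, and Smim5 by 0.11 log2 (95% interval -0.23 to 0.44) below the filter level on every array. Aldh1a1 differed by -0.05 log2 (95% interval -0.46 to 0.36). Each had a limma adjusted p of 1.00, and 0.773 or more with the block within each age. In that blocked fit the interval of Rasgrp3 was 0.05 to 0.70 log2, with limma adjusted p = 0.773. The fit shares 1 spread between the ages, while its pair differences had an SD of 0.53 log2 in neonates and 0.27 log2 in adults. That interval therefore understates the neonatal scatter, and nothing is read from its excluding 0.

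The injury effect was not shown to differ between the ages for any of the 6 genes. For Tnnc2 the adult effect minus the neonatal effect was -0.44 log2 (95% interval -1.34 to 0.45), for Rasgrp3 -0.45 log2 (95% interval -1.18 to 0.28) and for Ppp1r1b 0.20 log2 (95% interval -0.76 to 1.16). All 6 limma adjusted p were 1.00, against 0.228% of all probe sets called (22, with 238 at an unadjusted p under 0.05). The block within each age narrowed the interval of Tnnc2 to -0.83 to -0.06 log2, with limma adjusted p = 0.822. It narrowed that of Rasgrp3 to -0.91 to 0.006 log2, with limma adjusted p = 0.924. The same numbers compare the age gap in SNI with that in sham rats, since both are the difference of the same 4 means. The genes were chosen for a wide sham gap, so the sign of this difference is not independent of the choice. This holds for the blocked intervals too.

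Most other genes of skeletal muscle were near the floor of the arrays, with a few exceptions. The remaining troponin genes measured, Tnnc1, Tnni1, Tnni2, Tnnt1 and Tnnt3, averaged between 2.09 and 2.57 log2 in every group. The fast myosin genes Myh2 and Myh4, the light chain Myl1, the calcium pump Atp2a1 and the creatine kinase Ckm averaged between 2.09 and 2.12 log2, the floor of the arrays, while skeletal actin, Acta1, averaged 3.23 to 3.45 log2. The summed log2 level of the list ran from 12.07 to 12.94 in adult sham and from 11.75 to 12.91 in adult SNI, ranges that overlap. Only Myh1, Pygm, Pvalb and Tpm1 lay above the filter level on all arrays, and of these 4 tested genes 0 were called in either injury contrast, with 1 (Pygm in neonates) at an unadjusted p under 0.05. With group means removed, the mean level of the list correlated with Tnnc2 at 0.66 over the 24 arrays. Genes that stay at the floor add no spread to this mean.

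**Figure D4:**
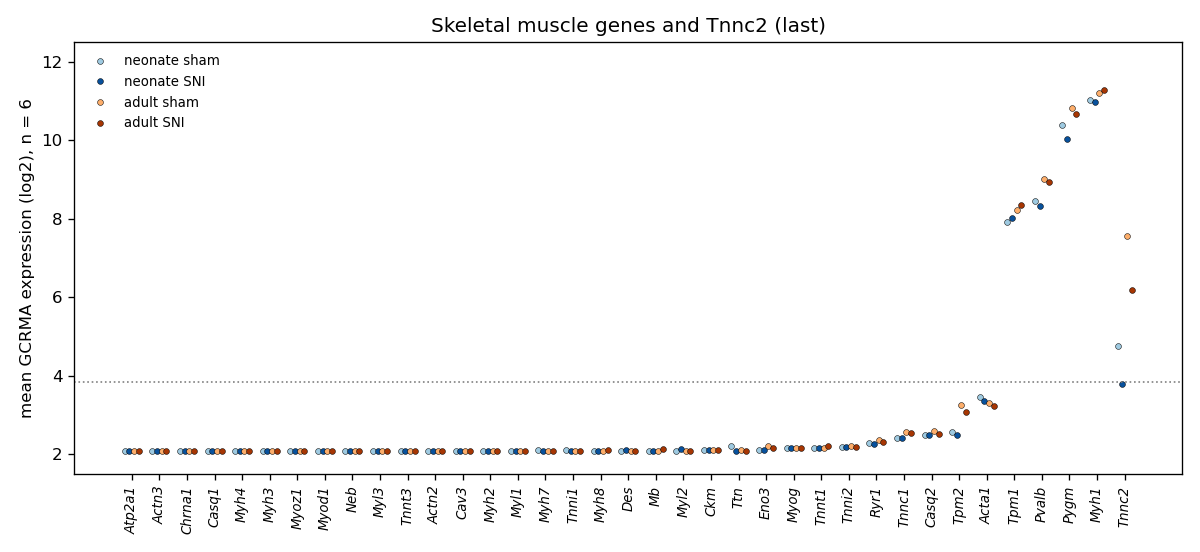
Mean GCRMA expression (log2, 6 arrays per point) of 36 skeletal muscle genes and, last, Tnnc2 in the 4 groups. The dotted line is the filter level, below which 31 of the 36 lay on all arrays, and Tnnc2 spans 3.80 to 7.58 log2 over the groups.

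Of these 4 muscle-list genes, 3 were called higher in adult SNI than in neonate SNI, the direction of Tnnc2, against 9.66% of all genes. Pygm, the muscle form of glycogen phosphorylase, was higher by 0.65 log2 (limma adjusted p = 0.00730) and Pvalb, the calcium buffer parvalbumin, by 0.62 log2 (limma adjusted p = 0.00601). Tpm1, a tropomyosin, was higher by 0.32 log2 (limma adjusted p = 0.0427), but only by 0.00058 log2 with the mean of its probe sets (limma adjusted p = 0.997), and its call also ended without any 1 of 8 SNI arrays. The median of the 4 was 0.47 log2 against -0.05 log2 over all genes tested. Myh1 differed by 0.29 log2 (95% interval -0.51 to 1.08).

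Microglial genes were higher in the SNI groups, where Tnnc2 was lower. All 12 tested members of the microglia and macrophage list rose in adults and 10 of 12 rose in neonates, against 1.98% and 0.357% of all genes. The summed log2 level of the list ran from 12.16 to 12.87 in adult sham and from 13.94 to 14.55 in adult SNI. With group means removed, and the injury shift with them, its mean level correlated with Tnnc2 at 0.17 over the 24 arrays. No gene of the astrocyte, oligodendrocyte, neuron, endothelial, meningeal, red cell or Schwann and sensory neuron lists was called in either injury contrast. The part of the microglial rise in the fall of Tnnc2 was not tested.

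The pathways around the genes were read from lists of their partners. Around Rasgrp3, 34 of 40 listed genes of Ras activation and diacylglycerol signalling were measured and 26 tested, of which 2 were higher and 4 lower in adult SNI than in neonate SNI (median -0.08 log2 against -0.05 log2 over all genes, where 9.66% were called higher and 11.9% lower). Rras2, a Ras-related GTPase, was lower in adults, with 8.05 to 8.52 log2 against 10.10 to 10.58 log2 (difference -2.11 log2, limma adjusted p = 1.6e-12). Rasgrp2, the 1 relative of Rasgrp3 that was tested, named after its value was seen, was also lower in adults, by -0.60 log2 (limma adjusted p = 0.0262), the opposite direction to Rasgrp3. Prkcd and Prkcb, protein kinases C that diacylglycerol activates, went opposite ways, with 0.52 log2 and -0.34 log2 (limma adjusted p = 2.4e-04 and 0.00786). The arrays gave Prkcd the identical value of 7.43 log2 on 7 arrays, 5 of neonate SNI and 2 of neonate sham, so its spread in neonates is understated.

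After adult injury 2 of these 26 genes rose and 0 fell, against 1.98% of all genes higher. Prkcd, at 7.20 to 7.51 log2 in adult sham, read 7.73 to 8.22 log2 in adult SNI, a rise of 0.56 log2 (limma adjusted p = 3.9e-04). The GTPase Rap1b, of the Rap family that Rasgrp3 acts on, read 9.15 to 9.42 log2 and 9.54 to 9.95 log2, a rise of 0.37 log2 (limma adjusted p = 0.00997). Sham and SNI ranges did not overlap for either gene. The call of Rap1b ended without all arrays numbered 1 or 6 (adjusted p = 0.0709 and 0.0998). In neonates limma called 0 of these 26 genes, against 0.357% of all genes.

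Around Ppp1r1b, 38 of 39 listed genes of dopamine, PKA and PP1 signalling were measured and 30 tested, and 6 were lower and 0 higher in adult SNI than in neonate SNI (median -0.15 log2), against 11.9% and 9.66% of all genes. Ppp1r1a, which encodes inhibitor 1, a relative of DARPP-32, was lower in adults by -0.82 log2 (limma adjusted p = 4.6e-04), with 5.88 to 6.37 log2 against 6.28 to 7.42 log2. These 2 inhibitors of protein phosphatase 1 thus differed with age in opposite directions. Prkar2b, a regulatory subunit of protein kinase A, was lower by -0.54 log2 (limma adjusted p = 0.00165), and Ppp3cb, a catalytic subunit of calcineurin, the phosphatase that reverses the activation of DARPP-32, by -0.34 log2 (limma adjusted p = 0.00802). The call of Ppp3cb ended with the mean of its probe sets (-0.31 log2, adjusted p = 0.0910). No gene of the list was called after injury at either age.

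Around Dao, 30 of 39 listed genes of D-serine, glycine and peroxisomal oxidation were measured and 22 tested, with 2 higher and 2 lower in adult SNI than in neonate SNI (median -0.13 log2), against 9.66% and 11.9% of all genes. Psat1, an enzyme of serine synthesis, was higher by 0.53 log2 (limma adjusted p = 2.6e-05), with all adult SNI arrays above all neonate SNI arrays. Pex5, the receptor that imports peroxisomal enzymes, was lower by -0.42 log2 (limma adjusted p = 0.00207), and Grin1, the obligatory NMDA receptor subunit named after its value was seen, was lower by -0.52 log2 (limma adjusted p = 0.0357). Slc6a9, the glial glycine transporter, was higher by 0.42 log2 (limma adjusted p = 0.0324), a call that ended without any 1 of 7 SNI arrays. No gene of the list was called after injury at either age.

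Around Aldh1a1, 25 of 31 listed retinoid genes were measured but only 9 tested, and 1 was higher and 3 lower in adult SNI than in neonate SNI (median 0.01 log2), against 9.66% and 11.9% of all genes. Rbp4, the plasma carrier of retinol, was higher by 0.86 log2 (limma adjusted p = 0.0112), Rdh10, which oxidises retinol to retinaldehyde one step before Aldh1a1, was lower by -0.53 log2 (limma adjusted p = 0.0100), and Fabp5, a carrier of retinoic acid and fatty acids, was lower by -0.56 log2 (limma adjusted p = 0.00245). The other 5 genes tested were not called. The calls of Rbp4 and Rdh10 ended without all arrays numbered 6 and 2 respectively (adjusted p = 0.0606 and 0.0747). No gene of the list was called after injury at either age.

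Beneath the group means, 5 of the 6 genes varied together from array to array. With group means removed, the correlations among Rasgrp3, Ppp1r1b, Dao, Aldh1a1 and Tnnc2 over 24 arrays were all positive, from 0.33 for Rasgrp3 with Aldh1a1 to 0.73 for Ppp1r1b with Tnnc2. Smim5 stood apart, from -0.40 with Aldh1a1 to 0.37 with Rasgrp3. The usual correlation among tested genes was not computed, so these values are not read as particular to the 5 genes. Over all probe sets tested, deviations on same-numbered arrays also correlated, at a mean of 0.38 in adults and 0.45 in neonates. Arrays that share a number share much of this spread: the 4 arrays numbered 4 lay above their group means for Ppp1r1b, Dao, Aldh1a1 and Tnnc2, and the 4 numbered 6 lay below them for Rasgrp3, Ppp1r1b, Dao and Aldh1a1. The spread also moved with marker lists: the mean level of the Schwann cell and sensory neuron list correlated at 0.56 (Aldh1a1) to 0.76 (Ppp1r1b) with these 5 genes, and that of the oligodendrocyte list at 0.56 (Dao) to 0.70 (Ppp1r1b) with all of them but Aldh1a1, where it was 0.31. Ppp1r1b correlated at 0.81 with the skeletal muscle list. In that list 31 of 36 genes lay below the filter level on all arrays and many did not vary, while Myh1 had an SD of 0.70 to 0.75 log2 within groups. Some pathway lists went the other way, with -0.77 between Ppp1r1b and the Ras list and -0.74 between Rasgrp3 and the dopamine list. The part of all these lists in the shared spread was not tested. The means of the deviations over the 4 arrays of 1 number were 0.83 log2 for Tnnc2 at number 4 and -0.80 log2 for Ppp1r1b at number 6.

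**Figure D5:**
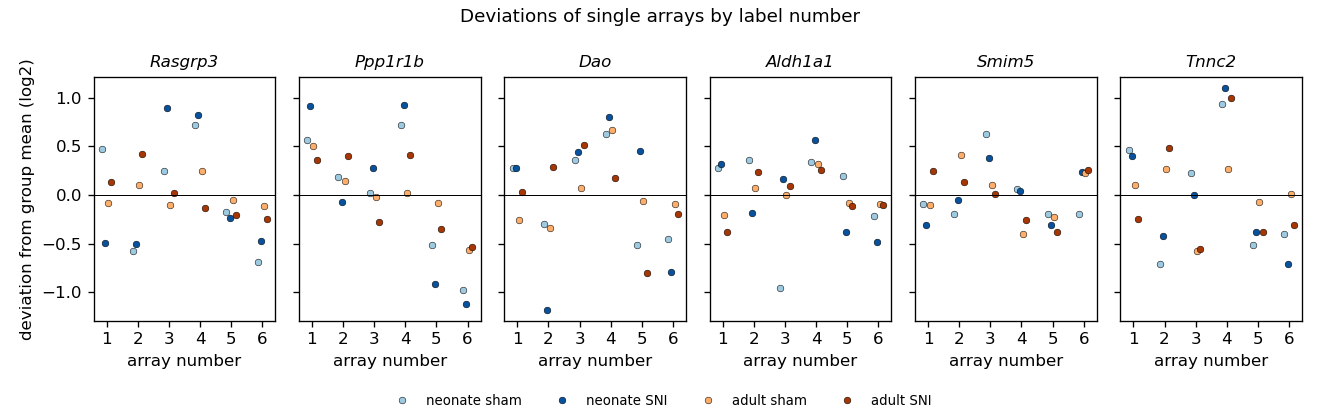
Deviation from the group mean (log2) of each gene on each array, by the array number in the labels and coloured by group. Points of number 4 lie high and points of numbers 5 and 6 low for most genes, whereas Smim5 shows another order.

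The same deviations were set beside all genes tested. The 3 genes most like each one, by Pearson's r over 24 arrays, were Sod3 (0.88), Gamt (0.85) and Tppp3 (0.83) for Tnnc2, and Csrp1 (0.88), S100a1 (0.88) and Nsfl1c (0.86) for Ppp1r1b. For Dao they were Bloc1s5 (0.83), Etfa (0.82) and LOC100910558 (0.82), for Aldh1a1 Stxbp3 (0.82), Ing4 (0.81) and Adgrg1 (0.72), for Rasgrp3 Igsf1 (0.77), Elovl5 (0.74) and Gal (0.74), and for Smim5 Usp24 (0.70), Rbm27 (0.70) and Zfp292 (0.68). The 3 neighbours of Tnnc2 did not share its injury difference: Sod3, Gamt and Tppp3 differed by 0.04, -0.08 and -0.05 log2 in adults, with limma adjusted p of 0.989, 0.971 and 0.994. All arrays share this normalisation, and the correlations describe these arrays only.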

How the data were processed

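The submitters' processing notes name GCRMA, with no version, as the method by which the authors made the deposited log2 values. It corrects each probe for background using its sequence and combines the probes of a set. GCRMA sets dim probe sets near a common floor, so differences that start there are uncertain in size. Of 15923 probe sets, 57 controls were removed, and 12783 of the remaining 15866 had 1 symbol in the platform annotation, 312 several and 2771 none. The 24 arrays were fitted together with limma 3.58.1 under R 4.3.3, each probe set having a mean per group and 1 spread shared by the 4 groups. P-values are two-sided and adjusted by Benjamini-Hochberg over 9638 probe sets, with a threshold of 0.05. A gene with several probe sets was read from its brightest one. The fit without a block was tested on simulated data with independent noise on each array and 1 spread per probe set. That test does not cover deviations shared by same-numbered arrays or a spread that differs between ages. Figures were drawn with matplotlib 3.10.9.

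The members and gene lists were chosen with earlier results of these data known. Named besides the 6 genes were up to 3 called genes of smallest p per list and contrast, and the 3 genes of highest correlation with each member; the few others say so. With group means removed, sham and SNI arrays of one number correlated at 0.10 to 0.56 (adults) and 0.24 to 0.61 (neonates), each above 0.1. From the data alone, the numbers could thus pair arrays within an age. The main fit did not use this pairing, and the block within each age was an alternative to it. Across ages the mean was 0.32 (0.014 to 0.64), with 21 of 24 pairs above 0.1, against a mean of -0.07 between different numbers. Since 3 pairs were not above 0.1, numbers were not taken to pair arrays across ages, and that block is a further alternative. The cut is a narrow one. The lowest adult pair passed it at 0.10003, and 33 of 180 pairs of different numbers were also above 0.1, up to 0.54. The neonatal calls of Tnnc2 and Ppp1r1b depend on this choice of block. Alternatives were another filter or none, a floor, further normalisation, variance models, array weights, blocks, averaged probe sets and omitted arrays.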

Additional observations from a re-analysis of the deposited data

Results flagged for a closer look

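Smim5 on neonate sham array 3 read 3.60 log2, far from the other 5 arrays of its group, which lay between 2.77 and 3.03 log2. The gap took up 0.687 of the group's range. All 6 values lie below the filter level of 3.84 log2. On 3 arrays of the group the value was the identical 2.77 log2, so the spread of the others is understated. Chance flags about 1 in 20 groups of normally distributed values, a rate that does not hold with such ties. Of 24 groups of single genes screened, this was the 1 that stood out.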

How the results depend on the processing

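The age differences of Rasgrp3, Ppp1r1b, Aldh1a1 and Tnnc2 among SNI arrays kept their direction and stayed past the threshold under every alternative run. The filter at the 60th percentile admitted these 4 genes only through adult arrays, so its calls give no support, and it left out Dao and Smim5. The count of 1 gene called after adult injury held under each other filter, scaling, variance model and block, and ran from 0 to 1 when arrays were left out; omitting all arrays of 1 number was chosen after seeing the data. The neonatal count of 0 became 2 with the replicate block within each age, and stayed 0 with the block over all groups and without any array. The replicate blocks changed no other call of the 6 genes. Over all probe sets, 193 calls in adults became 106 with the 60th percentile filter, 297 with the replicate block over all groups and 291 with the block within each age, and 146 to 200 without arrays. The 30 neonatal calls became 18 when only the groups compared were fitted, and 18 to 31 without arrays (19 without number 5 and 18 without number 6). The 22 calls for the difference of injury effects became 6 with the 60th percentile filter, and 13 to 29 without arrays (13 without number 2 and 14 without number 4). Raising values to the filter level brought the sham age difference of Smim5 to 1.68 log2. The number of arrays and signal near the floor limit the precision.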
